A study of Rattus norvegicus with 20 samples.

Results

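The mitochondrial ribosomal proteins are the nuclear-encoded proteins of the ribosome that works inside mitochondria. Genes were taken as members where the symbol in the count table began with Mrpl (large subunit) or Mrps (small subunit) followed by a digit, and where 10 or more of the 20 rats had 5 or more reads. The rule left 72 members, 43 Mrpl and 29 Mrps, of 16605 genes that passed the same read filter and of 31038 named genes in all. The rule used symbols and read totals only, and no difference between the groups.

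RNA was sequenced from the medial prefrontal cortex (mPFC) of male Sprague-Dawley rats, aged 6 to 8 weeks when treatment began according to the labels and housed individually. The LSD group (n = 10) was injected intraperitoneally with 0.16 mg/kg of LSD (lysergic acid diethylamide, given as the tartrate) on alternate days over 90 days, and the saline group (n = 10) with sterile saline on the same days. Tissue was taken after 3 weeks without drug by the labels, while the study's methods give a longer interval and an older starting age. Each library holds poly(A)-selected RNA of the mPFC of 1 hemisphere, so the data describe adult male cortex long after the last dose, with all its cell types mixed.

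Mitochondria keep a small genome that encodes core subunits of the respiratory chain and of ATP synthase, and all the proteins it encodes are made on the mitochondrial ribosome. The small subunit holds the decoding centre that reads the mRNA, and the large subunit holds the peptidyl transferase centre and the exit tunnel, which faces the inner membrane into which nascent chains are inserted. The ribosomal RNAs come from the mitochondrial genome, whereas every protein of the ribosome is encoded in the nucleus, translated in the cytosol and imported. Some of these proteins descend from bacterial ribosomal proteins and others exist only in mitochondria.

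Libraries held 16346629 to 25552681 reads on named genes in LSD-treated rats and 11098076 to 24201351 in controls. Cortical excitatory markers summed to 3290 to 4384 reads per 1000000 (RPM) in LSD-treated rats and 3377 to 5115 RPM in controls. No tested marker of any cell type list was at 0 RPM throughout, and Clic6 of the choroid plexus list was not tested. Markers of striatum and of oligodendrocytes leaned towards the controls. The 5 striatal markers had a median log2 fold change of −0.80 with 0 called by edgeR or by DESeq2 (5 at an unadjusted p under 0.05). The 5 oligodendrocyte markers had a median of −0.36 with 0 called by edgeR (2 at an unadjusted p under 0.05, and 1 by DESeq2). Striatal sums were 150 to 281 RPM under LSD and 173 to 435 RPM under saline, and the 4 highest sums belonged to Saline 8, Saline 9, Saline 2 and LSD 9. Of 5 inhibitory neuron markers, 1 was higher and 2 were lower. Oligodendrocyte sums were 1980 to 5328 RPM under LSD and 1937 to 6941 RPM under saline. Libraries also differed in how read counts ran with the genomic span of genes: the slope of log2 level per 10-fold step in span was 0.0188 to 0.0836 in LSD-treated rats and −0.225 to 0.0306 in controls, and Saline 9 had the lowest slope. Counts for the members and for the other lists of mitochondrial translation are given below with and without Saline 9, without the 4 rats with the highest striatal sums, and with an offset for span.

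Genes of both subunits were down-regulated in LSD-treated rats more often than genes at large, by small amounts. Of the 43 Mrpl members, 12 were lower (27.9%) and 0 higher, and of the 29 Mrps members, 6 were lower (20.7%) and 0 higher, by edgeR's quasi-likelihood test at an adjusted p under 0.05, beside a background of 8.54% of all genes tested called lower and 6.48% called higher. At an unadjusted p under 0.05, 26 members were lower and 1 higher, and the share of all genes at that level was not counted. DESeq2 called 19 members lower and 0 higher, beside 10.5% of all genes lower and 8.18% higher. The 18 called members differed by −0.50 to −0.19 on the log2 scale, that is, LSD-treated rats held 0.706 to 0.879 times the control level. Taking all members, 34 of 43 Mrpl and 22 of 29 Mrps fold changes lay below 0, with medians of −0.11 and −0.08, where 49.6% of all genes tested lay below 0 around a median of 0.0022. In bulk tissue, fewer cells of a type and less RNA per cell cannot be told apart. Scaling by total counts left 7 Mrpl (16.3%) and 2 Mrps (6.9%) members lower, where 5.17% of all genes were lower and 9.06% higher, and took the share of lower among all calls from 56.9% to 36.3%. The small subunit count was 3 (10.3%) when LSD 2, LSD 3, LSD 4, LSD 5 or Saline 4 was left out, where 5.77% to 7.36% of all genes were lower, and the large subunit count stayed between 8 and 12 over all 20 fits without 1 rat. The excess of lower calls over the background shrank or ended in alternative fits that are described further on, so the family count depends on how the libraries are treated.

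**Figure D1:**
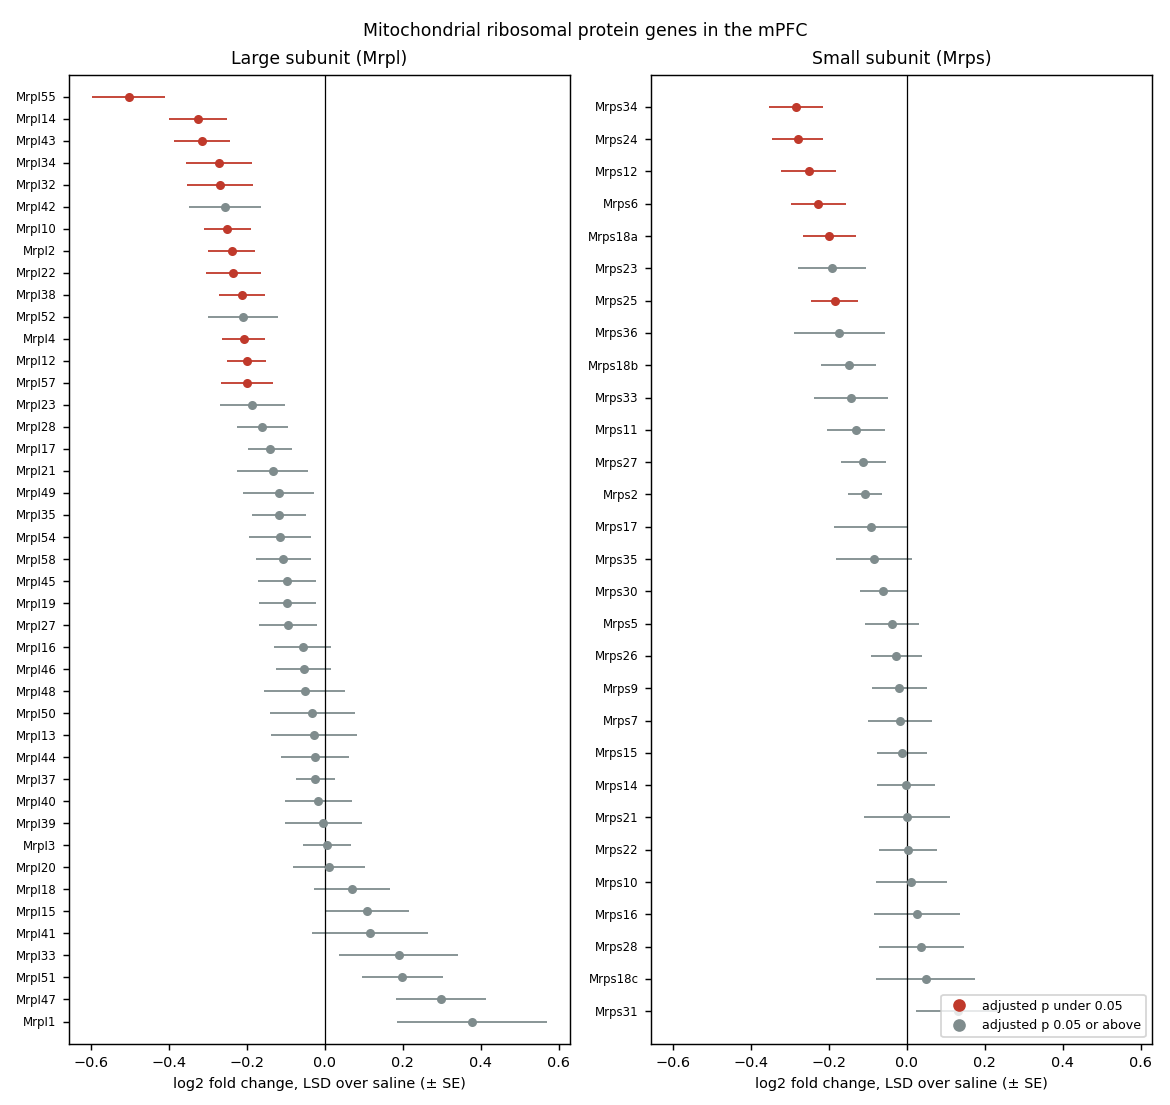
Log2 fold change of each of the 72 members in LSD-treated rats over saline controls (n = 10 each), with bars for the standard error, the large subunit at left and the small subunit at right. Red points passed an adjusted p of 0.05 in edgeR; the 18 red points lie between −0.50 and −0.19, and all others, in grey, did not pass.

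Mrpl55, a protein of the large subunit, had the largest difference. It ranged from 20.9 RPM through a median of 22.04 to 31.4 RPM in LSD-treated rats, and from 23.9 through 35.5 to 42.1 RPM in controls. All 10 LSD-treated rats lay below the control median and 8 of them below the lowest control, and only LSD 1 and LSD 6 reached into the control range. Its log2 fold change was −0.50 ± 0.094 (SE; edgeR adjusted p = 0.0043).

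Mrpl14, Mrpl43 and Mrpl10 followed among the large subunit genes called in every alternative fit. Mrpl14 counts among the conserved core proteins with a bacterial homologue. It spanned 15.6 to 19.9 RPM around a median of 17.8 RPM under LSD, and 18.7 to 28.6 RPM around 22.2 RPM under saline, so that 7 LSD-treated rats lay below every control (log2 fold change −0.32 ± 0.074 SE, edgeR adjusted p = 0.0089). Mrpl43, a mitochondria-specific protein, spanned 30.9 to 39.8 RPM with a median of 36.3 RPM under LSD and 34.2 to 52.9 RPM with a median of 42.8 RPM under saline (−0.31 ± 0.073 SE, adjusted p = 0.0090). Here the low end of the controls overlapped most LSD-treated rats, since 3 of these lay below the lowest control, while 8 controls lay above the highest LSD-treated rat. Mrpl10 belongs to the stalk of the large subunit, where it anchors copies of Mrpl12, the protein that contacts translation factors. The Mrpl10 range was 29.2 to 38.3 RPM with a median of 32.5 RPM under LSD and 32.7 to 42.7 RPM with a median of 40.4 RPM under saline (−0.25 ± 0.061 SE, adjusted p = 0.0115). For Mrpl12 itself the LSD-treated rats held 44.8 to 51.4 RPM with a median of 48.1 RPM and the controls 49.96 to 66.0 RPM with a median of 54.4 RPM (−0.20 ± 0.049 SE, adjusted p = 0.0119). Both stalk genes were thus lower on all rats, with 6 and 7 LSD-treated rats below every control. Unlike Mrpl10, Mrpl12 was called in 28 of the 32 alternative fits. With the offset for span it did not pass (−0.12, edgeR adjusted p = 0.0609).

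In the small subunit, Mrps24 and Mrps34 were called in every alternative fit. Mrps24, which has a bacterial homologue, held 19.2 to 23.8 RPM with a median of 21.8 RPM under LSD and 22.7 to 33.6 RPM with a median of 26.4 RPM under saline (log2 fold change −0.28 ± 0.066 SE, edgeR adjusted p = 0.0099). Mrps34, a mitochondria-specific protein, held 31.1 to 37.5 RPM with a median of 32.3 RPM under LSD and 33.003 to 52.5 RPM with a median of 38.7 RPM under saline (−0.28 ± 0.069 SE, adjusted p = 0.0111). In both genes 7 LSD-treated rats lay below the lowest control and 7 controls above the highest LSD-treated rat. No member of the family had groups that did not overlap at all, which 0.193% of all genes tested had.

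**Figure D2:**
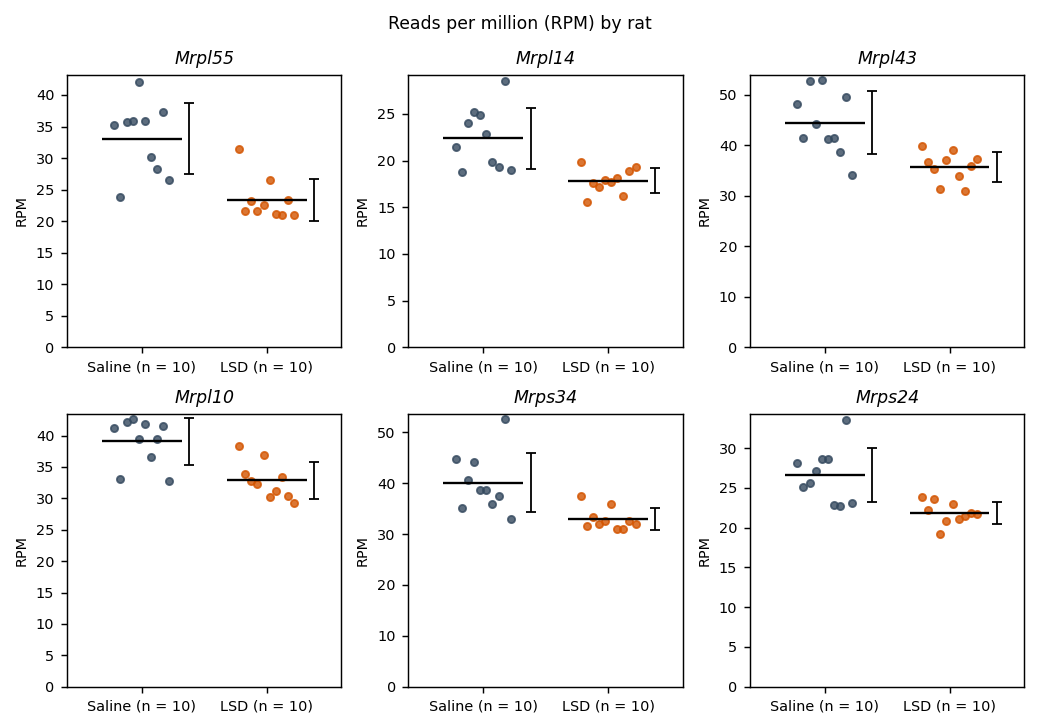
RPM in each rat for the 6 members that were lower in LSD-treated rats in the fit on all rats and in all 32 alternative fits. Points are rats, lines are group means and bars are ± SD (n = 10 per group); LSD-treated rats reach 31.4 RPM for Mrpl55 and controls go down to 23.9 RPM, so the groups overlap.

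The sequence just around the gene start is known from RefSeq (build GRCr8) for 57 of the 72 members, as windows from 250 bases before to 50 bases after the start. Windows are shown for the 3 genes among the 6 above that have an entry, for Mrpl4 as a called member with the ETS core, and for Mrpl46 as a gene that shares its window with a member of the other subunit. Letters are 5′ to 3′ on the strand of the gene, and capitals mark matches on either strand to 4 short motifs: the ETS core CCGGAAG read by GABP, the NRF1 core GCATGCGC, the YY1 core AAGATGG and the GC box GGGCGG read by SP1. GABP (also called NRF2) and NRF1 are background knowledge as regulators of nuclear genes for mitochondrial proteins.
Mrpl55, chr10:44488003-44488302, plus strand: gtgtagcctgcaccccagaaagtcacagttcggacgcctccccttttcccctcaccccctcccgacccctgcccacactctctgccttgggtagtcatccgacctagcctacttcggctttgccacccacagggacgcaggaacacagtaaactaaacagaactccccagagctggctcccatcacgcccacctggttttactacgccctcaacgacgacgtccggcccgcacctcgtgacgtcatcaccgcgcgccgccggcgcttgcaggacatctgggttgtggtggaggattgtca
Mrpl14, chr9:22811184-22811483, minus strand: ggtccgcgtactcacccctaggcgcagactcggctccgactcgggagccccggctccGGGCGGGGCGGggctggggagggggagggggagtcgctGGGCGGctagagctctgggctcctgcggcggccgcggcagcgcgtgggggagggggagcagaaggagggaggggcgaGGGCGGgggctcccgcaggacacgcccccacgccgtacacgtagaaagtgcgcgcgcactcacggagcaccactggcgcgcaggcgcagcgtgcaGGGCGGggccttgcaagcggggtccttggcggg
Mrpl10, chr10:82522220-82522519, plus strand: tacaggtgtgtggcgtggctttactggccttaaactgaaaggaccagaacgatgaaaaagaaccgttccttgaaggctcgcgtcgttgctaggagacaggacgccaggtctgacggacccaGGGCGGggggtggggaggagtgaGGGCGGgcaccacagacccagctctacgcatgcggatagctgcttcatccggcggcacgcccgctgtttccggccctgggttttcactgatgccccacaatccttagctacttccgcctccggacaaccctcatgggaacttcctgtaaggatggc
Mrpl4, chr8:27815521-27815820, plus strand: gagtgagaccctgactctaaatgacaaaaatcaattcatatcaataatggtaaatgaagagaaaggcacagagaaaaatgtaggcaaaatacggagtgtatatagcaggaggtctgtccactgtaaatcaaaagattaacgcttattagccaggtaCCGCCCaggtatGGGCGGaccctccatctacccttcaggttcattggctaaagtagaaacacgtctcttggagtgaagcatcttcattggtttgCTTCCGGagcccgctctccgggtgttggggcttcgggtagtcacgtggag
Mrpl46, chr1:142116981-142117280, minus strand: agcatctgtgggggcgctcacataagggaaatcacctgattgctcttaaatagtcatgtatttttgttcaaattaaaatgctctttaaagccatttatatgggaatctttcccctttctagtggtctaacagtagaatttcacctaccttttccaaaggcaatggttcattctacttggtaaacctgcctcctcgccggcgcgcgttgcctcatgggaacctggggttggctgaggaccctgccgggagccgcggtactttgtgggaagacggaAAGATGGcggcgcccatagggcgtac
The Mrpl55 window held none of these letters, the Mrpl14 window held 5 GC boxes and the Mrpl10 window 2. In the Mrpl4 window the ETS core began at the annotated start itself, with a pair of GC boxes upstream, and in the Mrpl46 window the YY1 core began 24 bases after the start.

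Over the 57 members with a window, the ETS core was found in 18 (31.6%), against 14.9% of 11605 tested genes with a window and 8.75% of all 33469 windows. The YY1 core was found in 15 members (26.3%), against 8.01% of tested genes and 7.01% of all windows. The NRF1 core occurred in 5 members (8.77%), beside 4.58% of tested genes and 2.47% of all windows. GC boxes ran the other way among tested genes, in 28 members (49.1%) beside 59.2% of tested genes and 33.1% of all windows. The ETS and YY1 cores can share the letters AAG, and each short motif also occurs by base composition alone. Among the 13 called members with a window the ETS core stood in 3 (23.1%) and among the 44 others in 15 (34.1%), while the YY1 core stood in 3 (23.1%) and 12 (27.3%). These are matches of letters, and no difference in them was tested.

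Several members start head to head with a neighbour. Within 1000 bases of the start, 17 of the 57 members (29.8%) had another annotated start pointing away on the opposite strand, against 11.0% of all windows. All windows include those of genes that were not tested here, and the share among tested genes alone was not counted. Mrpl46 and Mrps11 form such a pair between themselves, with starts 234 bases apart and 267 bases common to their windows. Neither was called: the log2 fold change was −0.05 ± 0.070 for Mrpl46 and −0.13 ± 0.074 for Mrps11 (SE; adjusted p = 0.646 and 0.244). Mrpl2 and Mrpl32 were the called members with a tested partner, at −0.24 and −0.27, and their partners Klc4 (kinesin light chain; −0.12, adjusted p = 0.0526) and Psma2 (a proteasome subunit; −0.01, adjusted p = 0.935) did not pass. Of 15 tested partners, Mrpl46 and Mrps11 among them, 0 were called by edgeR. The background was 8.54% of all genes lower and 6.48% higher, so 0 of 15 says little about the partners.

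The other called members of the large subunit differed in the same direction by less than Mrpl55, Mrpl14 and Mrpl43. Mrpl4, next to Mrpl17 the Mrpl member that took most reads, held 50.02 to 61.5 RPM with a median of 54.0 RPM under LSD and 54.9 to 73.0 RPM with a median of 62.5 RPM under saline (log2 fold change −0.21 ± 0.056 SE, edgeR adjusted p = 0.0177). Mrpl57 held 18.0 to 21.1 RPM with a median of 19.9 RPM under LSD and 17.5 to 29.6 RPM with a median of 22.2 RPM under saline, and lay just inside the threshold (−0.20 ± 0.067 SE, adjusted p = 0.0460). The lowest rat for Mrpl57 was a control, Saline 10, although 9 controls exceeded every LSD-treated rat. Mrpl2, Mrpl22, Mrpl32, Mrpl34 and Mrpl38 completed the 12, with log2 fold changes of −0.24, −0.23, −0.27, −0.27 and −0.21. Mrpl2 is a protein of the peptidyl transferase region and Mrpl22 one of the exit tunnel, whereas Mrpl38 is mitochondria-specific. In all 12 but Mrpl22, every LSD-treated rat lay below the control median, a pattern that 9.59% of all genes and 76.3% of the genes called lower had.

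Mrpl42 fell just outside the threshold. It held 16.1 to 24.0 RPM with a median of 19.9 RPM under LSD and 18.5 to 34.2 RPM with a median of 23.5 RPM under saline (log2 fold change −0.26 ± 0.092 SE, edgeR adjusted p = 0.0614), and Saline 9 was the control at 34.2 RPM. Mrpl17 took more reads than any other member. Its range was 55.6 to 73.2 RPM with a median of 67.0 RPM under LSD and 66.2 to 87.4 RPM with a median of 73.5 RPM under saline, and although all 10 LSD-treated rats lay below the control median it did not pass (−0.14 ± 0.057 SE, adjusted p = 0.0961).

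In the small subunit, Mrps12 encodes the protein at the decoding centre that is best known from streptomycin resistance in bacteria. It held 18.5 to 21.9 RPM with a median of 20.6 RPM under LSD and 18.6 to 30.5 RPM with a median of 24.0 RPM under saline (log2 fold change −0.25 ± 0.072 SE, edgeR adjusted p = 0.0226). Only 1 LSD-treated rat lay below the lowest control, but 8 controls lay above the highest LSD-treated rat. Mrps6 held 15.4 to 20.1 RPM with a median of 17.3 RPM under LSD and 17.7 to 25.6 RPM with a median of 20.9 RPM under saline (−0.23 ± 0.071 SE, adjusted p = 0.0335). Mrps25, a mitochondria-specific protein, held 33.4 to 39.0 RPM with a median of 35.6 RPM under LSD and 36.4 to 54.0 RPM with a median of 39.8 RPM under saline (−0.19 ± 0.061 SE, adjusted p = 0.0430). Mrps2 was nearest to the threshold on the other side, at 42.9 to 49.7 RPM with a median of 46.7 RPM under LSD and 45.7 to 55.6 RPM with a median of 48.8 RPM under saline (−0.11 ± 0.044 SE, adjusted p = 0.102).

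The Mrps18 paralogues differed in their values. All 3 are related to bacterial S18, but the product of Mrps18a sits in the large subunit despite its symbol. Mrps18a held 37.2 to 42.4 RPM with a median of 38.7 RPM under LSD and 40.6 to 64.6 RPM with a median of 43.2 RPM under saline, and was the last to pass (log2 fold change −0.20 ± 0.068 SE, edgeR adjusted p = 0.0484). Mrps18b held 23.4 to 28.6 RPM under LSD and 24.7 to 38.3 RPM under saline (−0.15 ± 0.070 SE, adjusted p = 0.152). For Mrps18c the groups covered almost the same range, 7.22 to 12.3 RPM under LSD and 6.66 to 12.2 RPM under saline (0.05 ± 0.127 SE, adjusted p = 0.838). Mrps30, the other protein of the large subunit with a small subunit symbol, held 26.9 to 36.2 RPM under LSD and 26.0 to 34.4 RPM under saline (−0.06 ± 0.060 SE, adjusted p = 0.536). Differences between paralogues were not tested.

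Most members did not pass, 31 Mrpl and 23 Mrps, and their medians were −0.05 and −0.03. Mrpl40, a gene of the region that is deleted in human 22q11 deletion syndrome, held 2.67 to 3.73 RPM with a median of 3.34 RPM under LSD and 2.75 to 4.18 RPM with a median of 3.25 RPM under saline (log2 fold change −0.02 ± 0.087 SE, edgeR adjusted p = 0.971). Mrpl39 and Mrps21 had the fold changes closest to 0 in their subunits, at −0.0033 ± 0.099 and 5.8e-05 ± 0.111. Mrps28 held 2.78 to 4.28 RPM under LSD and 2.63 to 4.43 RPM under saline, the fewest reads of the small subunit (0.04 ± 0.110 SE, adjusted p = 0.857). Mrpl1 took the fewest reads of all, 4 to 23 per rat, and its log2 fold change of 0.38 ± 0.192 (adjusted p = 0.185) was the highest of the family. Mrpl47, related to bacterial L29 at the tunnel exit, held 5.72 to 10.1 RPM with a median of 7.84 RPM under LSD and 5.001 to 9.16 RPM with a median of 5.72 RPM under saline, the nearest to a higher call (0.30 ± 0.116 SE, adjusted p = 0.0821). Mrpl47 was singled out after its values were seen, as were Mrpl15, Mrpl18, Mrpl41, Mrpl51 and Mrps16 below.

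By origin, proteins with a bacterial homologue and proteins found only in mitochondria both held lower members. Of 24 Mrpl members with a bacterial homologue, 8 were lower (33.3%, median −0.12), and of 18 without one, 3 were lower (16.7%, median −0.08). In the small subunit the counts were 3 of 15 (median −0.02) and 2 of 9 (median −0.11). These counts leave out members that the lists used here placed in neither class: Mrpl55 and Mrps18a, both lower, and Mrps18b, Mrps28, Mrps30 and Mrps36, not called. Mrps18a and Mrps18b are left out although they too are related to bacterial S18, so the shares depend on the lists. The difference between these shares was not tested.

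Members varied together from rat to rat within the groups. After each group's mean was removed, the median Pearson correlation over the 2556 pairs of members was 0.556, from −0.733 to 0.950, over 20 rats whose values share library and depth, against −0.002 over all pairs of tested genes. Pairs within the large subunit (median 0.538), within the small subunit (0.569) and across the subunits (0.563) were alike in this description. The first principal component of the members held 61.5% of their variance within groups. Saline 9 carried part of this, as the median over pairs was 0.363 without it.

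Rats that were high for the large subunit were also high for the small subunit. Relative to the mean over all rats, the median member of Saline 9 lay at 0.40 for the large subunit and 0.45 for the small subunit on the log2(RPM + 1) scale, and 98.6% of members were above their mean in this rat. Saline 2 came next at 0.22 in both. The remaining 8 controls lay between −0.07 and 0.06 for the large subunit. Of the LSD-treated rats, LSD 4 was lowest for the large subunit at −0.14 and LSD 10 highest at 0.09, inside a range that overlapped the controls. The gap between the large and the small subunit median within a rat stayed between −0.05 and 0.09. The summed RPM of the Mrpl members was 1028 ± 52.5 under LSD and 1121 ± 120 under saline, and that of the Mrps members 634 ± 29.5 and 683 ± 78.3 (SD, n = 10).

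The members that were lower were not those that followed this shared pattern most closely. The correlation of a member with the median of all other members, within groups, had a median of 0.445 among the 18 called members and of 0.811 among the 54 others. Mrpl10 (−0.17), Mrpl55 (−0.08), Mrpl38 (−0.03) and Mrpl4 (0.02) did not rise and fall with the rest. Mrpl34 (0.13) and Mrpl43 (0.14) hardly did, whereas Mrps25 (0.86) and Mrps18a (0.85) did so closely. These correlations are descriptions over 20 rats of the same libraries, and members with less scatter within groups pass the test more easily.

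**Figure D3:**
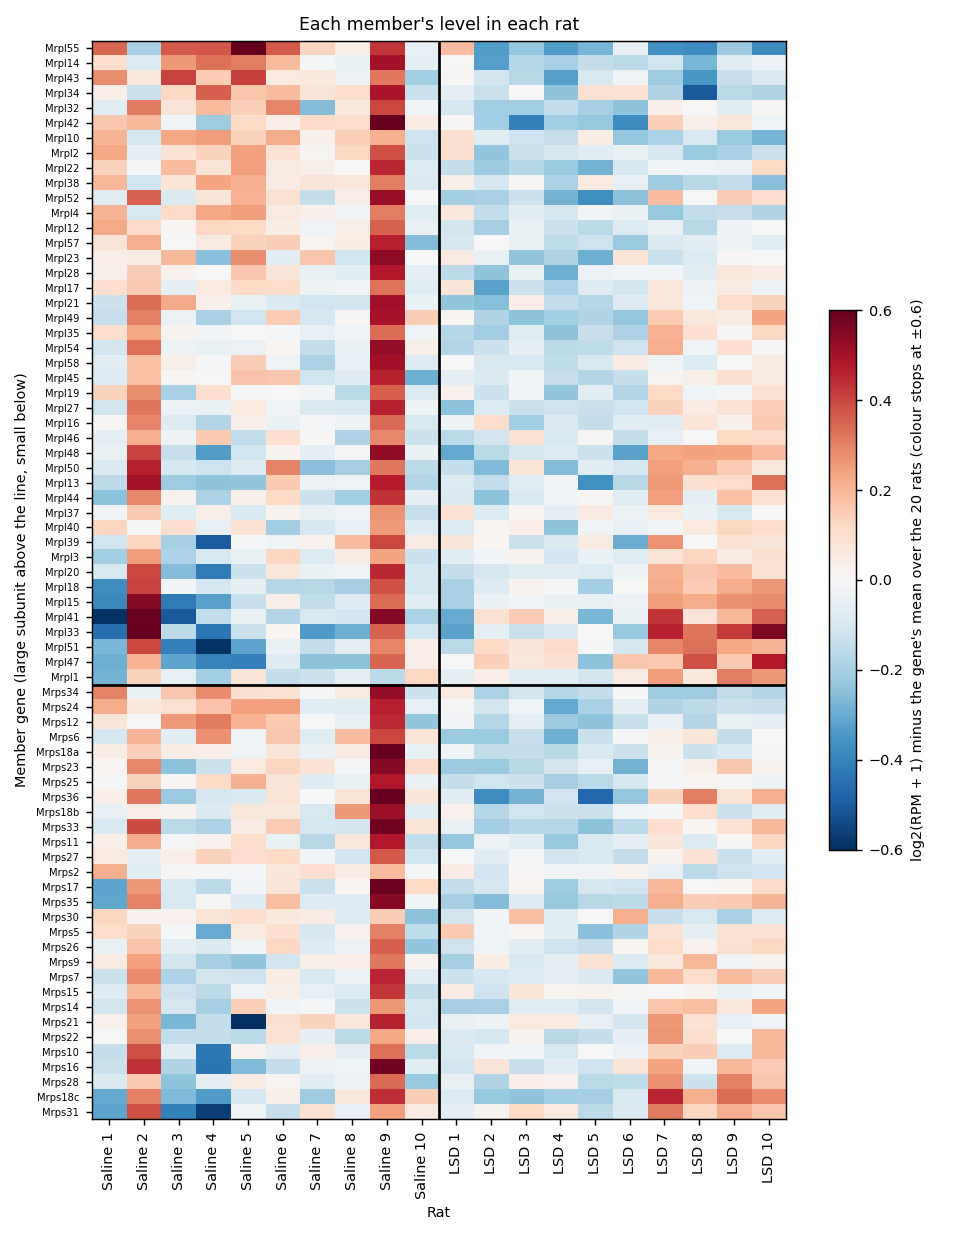
Level of each member (rows, the large subunit above the line and the small below, each sorted by fold change) in each rat (columns), as log2(RPM + 1) minus the mean of the gene over the 20 rats, with colour stopping at ±0.6. Saline 9 is above the mean for 98.6% of members and Saline 2 for 81.9%, while the top rows of each block are low in most LSD-treated rats.

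Saline 9 and Saline 2 were also among the rats with the highest striatal sums, and Saline 9 had the lowest span slope. Without Saline 9, 9 Mrpl and 4 Mrps members were lower, against 6.70% of all genes called lower and 5.23% called higher, and Mrpl47 was higher (adjusted p = 0.0306). The calls lost were those of Mrpl32, Mrpl34, Mrpl57, Mrps25 and Mrps6. The medians were then −0.05 and −0.01. Without the 4 rats with the highest striatal sums, chosen after the data were seen, 10 Mrpl and 4 Mrps members were lower against 10.4% of all genes, and Mrpl15, Mrpl41, Mrpl47 and Mrpl51 were higher against 10.5%. The medians of −0.02 for Mrpl and 0.0066 for Mrps then lay near that of all genes, at 0.0031, and the small subunit had changed sign. Of the 54 members that were not called on all rats, 22 lay below 0 in this fit, whereas the 18 called members all did. The part of tissue from outside the mPFC in these values was not tested.

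Span moved with the result as well. The median genomic span of the members was 6948 bases and that of all genes with a span 24491 bases, taken from GRCr8 in place of the build used for counting, and across 14942 genes the log2 fold change ran with span (Spearman's rho 0.360; 0.253 across the 72 members, which are not independent). With an offset that removed the trend of level with span in each rat, rho was 0.050 over all genes. Then 4 Mrpl (Mrpl10, Mrpl14, Mrpl43 and Mrpl55) and 3 Mrps members (Mrps6, Mrps24 and Mrps34) were lower and 0 members higher by edgeR (2 at an unadjusted p under 0.05), where 6.80% of all genes were called lower and 3.37% higher. Both subunits' shares, 4 of 43 (9.3%) and 3 of 29 (10.3%), came near the background, with medians of −0.04 and −0.06. The offset was built from each rat without regard to group, and the median slope was 0.0507 under LSD and −0.0350 under saline. It therefore also takes out any difference between the groups that runs with span, and the 2 cannot be told apart. With the offset and without the 4 rats, 4 Mrpl (9.3%) and 2 Mrps members (6.9%) were lower against 9.27% of all genes, and 5 Mrpl (11.6%) and 1 Mrps (3.45%) were higher against 8.11%, shares near the background in both directions. The higher members were then Mrpl15, Mrpl18, Mrpl41, Mrpl47, Mrpl51 and Mrps16.

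Leaving out 1 rat at a time kept 11 of the 18 calls in all 20 fits, whereas Mrpl57 passed in 3, Mrps18a in 5, Mrps25 in 9, Mrpl32 in 11, Mrpl34 in 13, Mrps6 in 14 and Mrpl22 in 17 of them. Mrpl55, Mrpl14, Mrpl43, Mrpl10, Mrps24 and Mrps34 were lower in the fit on all rats and in all 32 alternative fits. Mrpl55 ranged from −0.56 to −0.41 over those fits, with adjusted p at most 0.0111. Mrpl14 ranged from −0.35 to −0.28, Mrpl43 from −0.37 to −0.22 and Mrpl10 from −0.28 to −0.19. Mrps24 ranged from −0.30 to −0.18, with adjusted p at most 0.0368, and Mrps34 from −0.31 to −0.16, with adjusted p at most 0.0454.

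**Figure D4:**
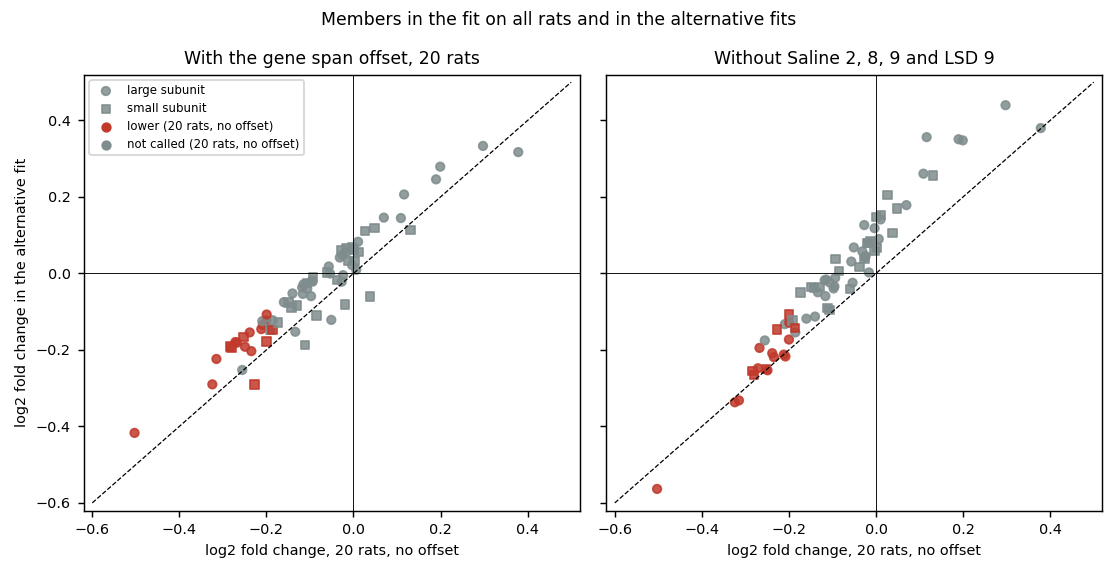
Log2 fold change of the 72 members in the fit on 20 rats (horizontal axis) against the fit with the gene span offset (left) and the fit without Saline 2, Saline 8, Saline 9 and LSD 9 (right). The dashed line marks equal values, circles are the large and squares the small subunit, and red points are the 18 members lower in the fit on 20 rats; most points lie above the dashed line, and Mrpl55 stays lowest at −0.42 and −0.56.

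Genes that work with the ribosome moved in both directions. Tufm, the elongation factor that brings aminoacyl-tRNA to the mitochondrial ribosome, held 74.0 to 83.4 RPM under LSD and 77.1 to 105 RPM under saline (log2 fold change −0.23 ± 0.052 SE, edgeR adjusted p = 0.0081). Pdf, which removes the formyl group from nascent chains (−0.19 ± 0.058 SE, adjusted p = 0.0289), and Oxa1l, the insertase that receives them in the inner membrane (−0.16 ± 0.055 SE, adjusted p = 0.0454), were lower too. Lrpprc, which stabilises mitochondrial mRNAs, was higher, at 79.4 to 106 RPM under LSD and 71.5 to 89.7 RPM under saline (0.22 ± 0.055 SE, adjusted p = 0.0116). In all, 3 of 16 translation factors were lower (18.8%) and 1 higher (6.25%), with a median of 0.03. With the span offset Tufm alone was called, at −0.15 (adjusted p = 0.0411). That is 6.25% of the list lower, beside 6.80% of all genes. Pdf (−0.11, adjusted p = 0.167), Oxa1l (−0.10, adjusted p = 0.163) and Lrpprc (0.14, adjusted p = 0.0661) did not pass in that fit. Without Saline 9 the call of Oxa1l was lost (adjusted p = 0.0770). This left 2 lower (12.5%) and 1 higher (6.25%), beside 6.70% and 5.23% of all genes. All 4 calls held without the 4 rats, and Mtif2, an initiation factor (0.34, adjusted p = 0.0159), and Guf1, an elongation factor (0.25, adjusted p = 0.0405), were higher as well. That made 3 of 16 lower and 3 higher (18.8% each), beside 10.4% and 10.5% of all genes. Tufm was the 1 factor called in all 32 alternative fits.

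Of 19 mitochondrial aminoacyl-tRNA synthetases and amidotransferase subunits, 4 were lower (21.1%) and 2 higher, with a median of −0.02. The lower ones were led by Pars2, the prolyl-tRNA synthetase (−0.35 ± 0.077 SE, adjusted p = 0.0075), followed by Tars2, Cars2 and Fars2, and the higher ones were Hars2 (0.23 ± 0.059 SE, adjusted p = 0.0142) and Nars2 (0.23 ± 0.078 SE, adjusted p = 0.0488). Of 25 assembly factors and ribosomal RNA modifying enzymes, Mtg1, a GTPase of large subunit assembly, was lower (−0.23 ± 0.062 SE, adjusted p = 0.0191) and 0 were higher by edgeR or DESeq2 (1 at an unadjusted p under 0.05). The median of this list was 0.0010. These shares stand beside the same background of 8.54% lower and 6.48% higher.

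Pars2 and Hars2 were called in all 32 alternative fits, and the other synthetases were not. With the span offset 3 synthetases were lower (15.8%) and 1 higher (5.26%), beside 6.80% and 3.37% of all genes. Tars2 (adjusted p = 0.0624) and Nars2 (adjusted p = 0.270) did not pass there. Without Saline 9, 1 was lower and 1 higher (5.26% each), near the 6.70% and 5.23% of all genes. Tars2 (0.0505), Cars2 (0.0501), Fars2 (0.0809) and Nars2 (0.0557) then lay above an adjusted p of 0.05. The fit without the 4 rats had 4 lower (21.1%) and 1 higher (5.26%), beside 10.4% and 10.5% of all genes. Aars2 (−0.25, adjusted p = 0.0258) was lower there in place of Fars2 (adjusted p = 0.0557), and Nars2 (adjusted p = 0.0778) did not pass. Mtg1 remained the 1 assembly gene called with the span offset (adjusted p = 0.0408) and without Saline 9 (adjusted p = 0.0341). Without the 4 rats Rcc1l (−0.21, adjusted p = 0.0333) was lower beside Mtg1, and Fastkd2 (0.42, adjusted p = 0.0169) and Mterf4 (0.32, adjusted p = 0.0311), which both act on mitochondrial ribosomal RNA, were higher, so that 8% of the list was called in each direction against 10.4% and 10.5% of all genes. All p-values here are edgeR's, adjusted over all genes of the fit, and the genes called in alternative fits alone were named after their values were seen.

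Genes for replication and transcription of mitochondrial DNA and the mRNAs encoded there had 0 calls by edgeR and by DESeq2 on all 20 rats. Of the 10 nuclear genes, 1 had an unadjusted p under 0.05, in the higher direction, and Tfam, which packages mitochondrial DNA, was at 0.03 ± 0.069 (adjusted p = 0.791) and Polrmt, the mitochondrial RNA polymerase, at −0.11 ± 0.104 (adjusted p = 0.527). The 13 mitochondrially encoded mRNAs, whose translation is the task of the ribosome, had fold changes from −0.15 to 0.34 around a median of 0.08, with 0 at an unadjusted p under 0.05. Their summed level was 34142 to 47765 RPM under LSD and 22462 to 58042 RPM under saline, and both extremes belonged to controls, Saline 4 and Saline 9. Without Saline 9, or with the span offset, both lists again had 0 calls by edgeR (0 mRNAs and 1 nuclear gene at an unadjusted p under 0.05). The 13 mRNAs had no span and so received no offset. The fit with the offset therefore says nothing about span for them. Without the 4 rats, 2 of the 13 mRNAs were higher, COX2 (0.62, adjusted p = 0.0159) and ND3 (0.56, adjusted p = 0.0189), subunits of cytochrome c oxidase and of complex I. In that fit 6 of the 13 had an unadjusted p under 0.05, all in the higher direction, and their median was 0.35. The 2 calls are 15.4% of the list, beside 10.5% of all genes called higher in that fit. The 10 nuclear genes had 0 calls there by edgeR (2 higher at an unadjusted p under 0.05), with a median of 0.17 against 0.07 on all rats.

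**Figure D5:**
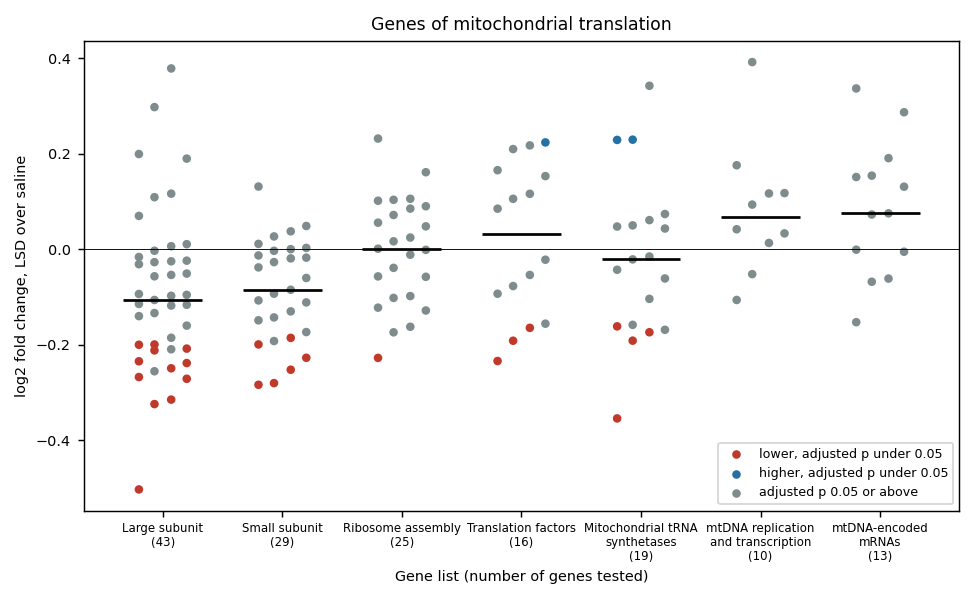
Log2 fold change of genes of mitochondrial translation in LSD-treated rats over controls, by list, with the number of genes tested in parentheses and lines at the medians. Red points were lower and blue points higher at an adjusted p of 0.05 in edgeR; the ribosomal protein lists have medians of −0.11 and −0.08, and the mitochondrially encoded mRNAs a median of 0.08 with 0 called on all 20 rats.

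Proteins of the same ribosome stood in the table under other symbols as well. The lower-case entries mrpl9, mrpl11 and mrpl24, which the rule does not take, had log2 fold changes of −0.12, −0.12 and −0.11 with 0 called by edgeR or DESeq2 (1 at an unadjusted p under 0.05). Dap3, Ptcd3, Aurkaip1, Chchd1 and Gadd45gip1, further ribosome proteins without the family's symbol, had 0 called by either tool (2 lower and 1 higher at an unadjusted p under 0.05) and values from −0.19 for Dap3 to 0.20 for Ptcd3. Ptcd3 (0.31, adjusted p = 0.0316) and Chchd1 (0.30, adjusted p = 0.0327) were higher without the 4 rats, while with the span offset or without Saline 9 0 of these 5 and 0 of the lower-case entries were called (at an unadjusted p under 0.05, 1 of the 8 was lower in each fit and 1 higher without Saline 9). Mrps36, whose product is now known as a component of the 2-oxoglutarate dehydrogenase complex, is a member by symbol only, at −0.17 ± 0.116 (adjusted p = 0.327). The read filter removed 4 symbols of the family: Mrpl30 and Mrpl36 had 0 reads in all rats, Mrps21l at most 3, and Mrpl53 43 reads in LSD 6 and 0 elsewhere. RefSeq lists 31 pseudogene entries for 22 members, among them the called Mrpl2, Mrpl32 and Mrps25, and reads shared with such copies make the counts of these genes uncertain.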

How the data were processed

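Medial prefrontal cortex RNA of 20 rats (10 LSD, 10 saline) was analysed from 1 table of raw read counts per gene. The counts were made by the authors, who trimmed reads with TrimGalore, aligned them with HISAT2 to rn6 and counted them per gene with HTSeq; versions, annotation and strand setting are not given in the sources used here. The last 5 rows of the deposited table carry no name (25.5 to 29.0% of column totals) and were left out. A gene was kept where 10 or more rats had 5 or more reads of it. LSD-treated rats were compared with controls by edgeR's quasi-likelihood test (version 4.0.16 in R 4.3.3, TMM scaling, Benjamini-Hochberg adjustment over all 16605 genes, threshold 0.05, two-sided), which was tested on simulated data. RPM are counts per 1000000 of the TMM-scaled total. Libraries of 11098076 to 25552681 reads limit genes with few reads; the log2 fold change of each member carries a median standard error of 0.0748. Alternatives used DESeq2 1.42.0, sva 3.50.0, other scalings and filters, an offset for gene span (50 bins of RefSeq GRCr8 span, smoothed over 5 bins, since no rn6 annotation was used here), a replicate block, each rat left out, and 4 rats left out together. P-values measure the spread between these rats.

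Members and gene lists were chosen with earlier results of these data known. Named for each subunit were up to 5 called members with the smallest p in each direction, the 2 with most and the 2 with fewest RPM, those with the largest and smallest fold change, those nearest the threshold on each side, and Mrps30, Mrps18a, Mrps18b, Mrps18c, Mrpl12, Mrpl40 and Mrps12. From the other lists, the 2 with the smallest p in each direction, Tufm, Tfam and Polrmt were named. Further names were chosen after their values were seen.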

Additional observations from a re-analysis of the deposited data

Results flagged for a closer look

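Among 52 groups of 10 rats examined for the named genes, 4 had a rat at one end that stood apart by Dixon's test, where chance alone gives about 1 in 20. Saline 9 was that rat in 3 of them. Mrpl42 was at 34.2 RPM in Saline 9 and at most 24.9 RPM in the other controls. Mrps18a was at 64.6 RPM in Saline 9, with the next control at 46.3 RPM. Mrps25 was at 54.0 RPM in Saline 9 and at most 44.7 RPM in the other controls. The fourth was Mrps21 in LSD 7, at 12.7 RPM with the next LSD-treated rat at 11.2 RPM. Mrpl53, which the read filter removed, had 43 reads in LSD 6 and 0 in all other rats of both groups.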

How the results depend on the processing

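Fold changes of the 18 called members kept their direction in all 32 alternatives. The named members gave 633 values with the same sign and on the same side of the threshold. A further 85 no longer passed it, 5 newly passed it and 45 had the opposite sign. With scaling by total counts, 7 Mrpl and 2 Mrps members were lower (5.17% of all genes), and with no read filter 8 Mrpl and 3 Mrps were (3.32%). The span offset left 4 Mrpl and 3 Mrps lower (6.80% of all genes). Without the 4 rats, 4 Mrpl were higher (9.3%, beside 10.5% of all genes) and the Mrps median was 0.0066. With the span offset as well, 4 Mrpl and 2 Mrps were lower, 5 Mrpl and 1 Mrps higher (9.27% and 8.11% of all genes), and the medians were 0.027 (Mrpl) and 0.023 (Mrps). Without 1 rat, Mrps members lower ranged from 3 to 6 (5.77% to 11.5% of all genes). Mrpl members higher ranged from 0 to 2 (2 without Saline 2, 1 without LSD 5 or Saline 9), where 4.02% to 10.1% of all genes were higher.

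Same-numbered rats were not treated as pairs in the main fit. The correlation of their deviations ran from −0.259 to 0.467, with a mean of 0.145 against −0.016 for rats of different number. It was over 0.1 in 6 of 10 pairs, and 1 LSD-treated rat was closest to its own number. These values do not settle whether the numbers mark pairs. A replicate block gave 11 Mrpl and 4 Mrps members lower and 1 Mrpl (Mrpl47) higher, beside 9.67% and 8.16% of all genes, with Mrpl39 at 0.0066 in that fit; block and span offset together gave 5 Mrpl and 3 Mrps lower and 2 Mrpl higher (8.02% and 4.53% of all genes), with Mrpl39 at 0.032, Mrpl40 at 0.057 and Mrps28 at −0.055.

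Some named members changed sign, none of them called, and the cause was not tested. Most lay near 0 on all rats, but Mrps18b was at −0.15 there (edgeR adjusted p = 0.152). Mrpl39 was at 0.040 with scaling by totals, 0.013 with no filter, 0.0050 with the filter of 10 reads, 0.068 with reads drawn down to the smallest total, 0.022 with the span offset, 0.12 without the 4 rats and 0.14 with both, and −0.054 to 0.055 without 1 rat. Mrpl40 was at 0.030 with scaling by totals, 0.0011 with no filter, 0.055 with the span offset, 0.0025 without the 4 rats and 0.075 with both, and −0.046 to 0.025 without 1 rat. Mrps21 was at −0.00057 with RLE factors, −0.0023 with DESeq2, −0.0018 with 1 surrogate variable and −0.032 with reads drawn down, and −0.057 to 0.066 without 1 rat. Mrps28 was at −0.061 with the span offset, and −0.0076 to 0.10 without 1 rat. Mrps30 was at 0.0025 with the span offset and 0.021 with both changes, Mrps18b at 0.036 with both, and Mrps18c at −0.012 to 0.12 without 1 rat.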
